A study of Mus musculus with 21 samples.

Results

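RNA polymerase III (Pol III) occupancy at tRNA genes was compared between back skin of NSun2-/- and wild-type (WT) mice. The Pol III part of the series holds 5 of its 21 samples: 3 ChIP-seq libraries made with an antibody to POLR3A and 2 input libraries. Of these, 2 POLR3A libraries (WT 1 and WT 2) and 1 input came from WT skin, and 1 POLR3A library and 1 input came from NSun2-/- skin, whose titles carry the letters KD. The title of WT 1 reads PolII where those of WT 2 and NSun2-/- read PolIII, but its antibody label names POLR3A as theirs do. Members were taken by these labels, and the comparison was made at 226 bound tRNA genes of 3283 loci in the count table. A gene was called bound when each WT library held 10 or more of its reads and when the mean of its WT normalised read counts (RPM, reads per 1000000 of the library's total in the table) reached 2-fold over the WT input.

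All mice were males of a C57Bl6/J CBA F1 background in early anagen, the growth phase of hair follicles, at postnatal day 25. The NSun2-/- mice carried a gene trap (clone D014D11 of the German Gene Trap Consortium) in intron 8 of Nsun2, an allele of the whole animal, and the WT mice came from the same breedings. Each sample pooled the skin of 3 mice, the WT samples being labelled as independent biological replicates, which was crosslinked with 1% formaldehyde before chromatin was prepared. Whole skin mixes epidermis, hair follicles, dermis and other cells. Because the table holds tRNA loci alone, neither the loss of Nsun2 nor the cell makeup of the skin could be checked in it, and fewer cells with an occupied gene cannot be told apart from less Pol III per cell. With 1 NSun2-/- library there was no replicate of that genotype, so its values were set against the spread between the 2 WT libraries.

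Pol III is the polymerase that makes tRNAs, 5S rRNA and a few other short RNAs. POLR3A is its largest subunit and forms part of the catalytic centre, so that POLR3A ChIP marks the genes on which the enzyme sits. Most tRNA genes have their promoter inside the transcribed part: box A lies over the D arm, box B lies over the T arm, and both are bound by TFIIIC, which recruits TFIIIB and then the polymerase. NSUN2 acts after transcription. It is a cytosine-5 RNA methyltransferase of tRNAs, best known for cytosines 48 and 49 beside the T arm and for cytosine 34 of LeuCAA.

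The following genes carry the results below and are printed 5′ to 3′ as they stand in mm9, with the letters of box B (GTTCNANNC, on the coding strand) in capitals where they matched exactly. The first pair are GlnCTG genes: chr13.trna87-GlnCTG, which lay below both WT libraries in the NSun2-/- library, and a copy of the commonest GlnCTG sequence. The next pair are the same for SerAGA. They are followed by an AlaTGC gene and the initiator MetCAT gene, both among the 10 genes with the most POLR3A reads in the NSun2-/- library; in the latter box B had no exact match.
chr13.trna87-GlnCTG: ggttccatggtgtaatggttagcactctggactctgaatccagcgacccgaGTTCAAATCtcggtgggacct
chr11.trna1817-GlnCTG: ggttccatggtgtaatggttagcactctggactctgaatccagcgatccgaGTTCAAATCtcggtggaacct
chr13.trna980-SerAGA: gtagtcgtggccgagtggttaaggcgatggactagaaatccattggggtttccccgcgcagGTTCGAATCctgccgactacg
chr11.trna394-SerAGA: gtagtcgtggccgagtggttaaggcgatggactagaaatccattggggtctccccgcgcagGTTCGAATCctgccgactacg
chr11.trna2022-AlaTGC: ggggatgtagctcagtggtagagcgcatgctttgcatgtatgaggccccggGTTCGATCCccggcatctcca
chr3.trna792-MetCAT: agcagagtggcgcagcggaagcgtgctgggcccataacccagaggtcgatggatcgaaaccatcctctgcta

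Counted from 1 at the 5′ end, chr13.trna87-GlnCTG (chr13:22012069-22012140, plus strand) differed from the common GlnCTG sequence by T47C and A68G, the common base being given first. Likewise, chr13.trna980-SerAGA (chr13:22028963-22029044, minus strand) differed from the common SerAGA sequence by C50T. Both lay between annotated genes and their sequences had 1 exact copy in mm9, whereas the common sequences had 4 and 6. The AlaTGC gene (chr11:48647931-48648002, minus strand) lay in an intron of Trim7.

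Positions were known for 206 of the 226 bound genes. Of these, 184 lay between genes, 19 in introns and 3 in exons of GENCODE genes. Their lengths ran from 71 to 107 bases. The letters of box B were matched exactly in 194 of the 206 genes (94.2%), and also in 37 of the 41 listed genes that were not bound. By comparison, 3.14% of windows of 73 bases on chromosome 19 held them on either strand. The sequences were highly repeated: 144 genes shared their whole sequence with at least 1 other place in mm9, 62 did not, and the 206 genes had 109 distinct sequences. Reads inside a repeated gene were distributed by the authors in proportion to uniquely placed reads, so a value for such a gene rests on the uniquely placed reads around it.

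The POLR3A libraries held 36866 counts (WT 1), 63136 (WT 2) and 95112 (NSun2-/-), and the inputs held 15918 (WT) and 14483 (NSun2-/-). Bound genes took 66.7% of the counts of WT 1, 71.6% of WT 2 and 80.4% of the NSun2-/- library. In the inputs they took 8.31% (WT) and 6.56% (NSun2-/-). The 95% Clopper-Pearson intervals, which cover counting error only, ran from 66.2% to 67.2% in WT 1, from 71.3% to 72% in WT 2 and from 80.1% to 80.6% in the NSun2-/- library, so the shares of all 3 libraries were apart. The share at bound genes was 8.03 times (WT 1) and 8.62 times (WT 2) that of the WT input, and in the NSun2-/- library 12.3 times that of its own input and 9.68 times that of the WT input. The bound rule itself asks for 2-fold over the WT input, so a higher share than in that input was partly built in. Because the 3057 loci that were not bound took a smaller share of the NSun2-/- library, their summed log2 ratio to the WT mean was -0.65, and that of the summed bound genes was 0.22. All ratios of single genes that follow are relative to library totals and carry this shift. By their library numbers, WT 2 and NSun2-/- adjoin while WT 1 stands apart, and both inputs are numbered near WT 1. An input is called a library's own by its genotype label alone. Whether a run or batch went with these numbers was not tested.

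Across the bound genes, the log2 ratio of NSun2-/- to the WT mean spread less than that of WT 2 to WT 1, whose SD was 0.52. A mean of 2 libraries varies less than a single library, so these spreads are not like for like. The log2 ratio of NSun2-/- to the WT mean, computed after 1 read was added to every count, had a median of 0.16 and an SD across genes of 0.38. No bound gene was at least 2-fold higher (0 of 226, or 0%), and 3 were at least 2-fold lower (1.33%). The bound rule uses WT reads, so genes low in WT are left out and genes low in NSun2-/- are kept. With the rule set on the NSun2-/- library in its place, 2 genes were higher and 0 lower. Set against WT 1 alone, 14 genes were at least 2-fold higher and 8 lower, and against WT 2 alone 0 and 2. Scaled to the loci that were not bound, 54 were higher and 1 lower, and with input subtracted 3 were higher and 19 lower. Between the WT libraries themselves, WT 2 was at least 2-fold higher than WT 1 at 6 genes (2.65%) and at least 2-fold lower at 4 (1.77%).

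The NSun2-/- library was closer to WT 2 than the WT libraries were to each other. The SD of the log2 ratio was 0.28 for NSun2-/- over WT 2, 0.52 for WT 2 over WT 1 and 0.59 for NSun2-/- over WT 1, and the medians were 0.11, 0.09 and 0.21. Thus, the NSun2-/- library lay within 0.5 of the median ratio at 92.9% of genes when set against WT 2, and at 62.8% when set against WT 1. These comparisons share libraries and are given side by side as a description. WT 1 held the fewest counts at bound genes (24585, beside 45213 in WT 2 and 76467 in NSun2-/-). Ratios that involve WT 1 therefore carry more counting error, and the part of depth in these spreads was not tested.

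**Figure D1:**
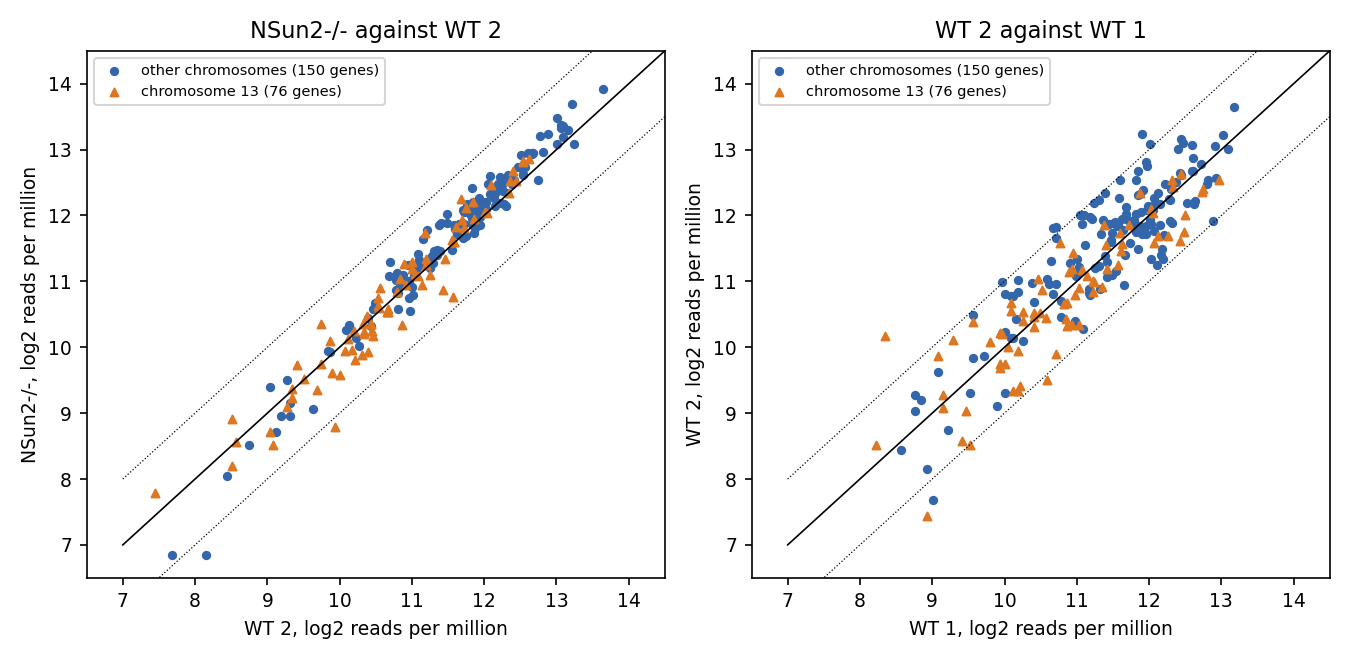
Each point is 1 of the 226 bound genes, with log2 RPM of WT 2 against NSun2-/- (left) and of WT 1 against WT 2 (right); triangles are the 76 genes of chromosome 13, the solid line is equality and the dotted lines are 2-fold. The points lie closer to the line on the left, where the SD of the log2 ratio was 0.28, than on the right, where it was 0.52.

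The NSun2-/- library lay above both WT libraries at 114 genes (50.4%), between them at 72 and below both at 40 (17.7%). Most of these steps were small: 24 of the 114 and 13 of the 40 were at least 0.5 from 0 on the log2 scale. None lay 2-fold above both WT libraries (0%), and 2 lay 2-fold below both (0.885%): chr9.trna592-CysGCA and chr13.trna87-GlnCTG. The split turned when libraries were scaled to the bound genes in place of the table total, with 49 genes above both and 85 below both. Scaled to the loci that were not bound, 209 lay above both and 4 below both. The side on which many genes lay thus changed with the scaling.

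The ratio went with the level of occupancy, as a description, since the level includes the NSun2-/- library itself. The 76 genes with the lowest mean over the 3 libraries (261 to 1920 RPM) had a median log2 ratio to the WT mean of -0.13. The median was 0.18 for the next 75 genes (1970 to 3890 RPM) and 0.29 for the 75 highest (3900 to 12500 RPM). The same order was seen against WT 1 (-0.07, 0.21 and 0.38) and against WT 2 (-0.09, 0.13 and 0.22), while WT 2 over WT 1 moved from 0.05 to 0.08 and 0.11. All 3 genes at least 2-fold lower were among the lowest. The share of counts at loci that were not bound moved with this result, being 33.3% in WT 1, 28.4% in WT 2 and 19.6% in the NSun2-/- library, and its part in it was not tested.

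edgeR's quasi-likelihood test with TMM normalization, in which the lone NSun2-/- library is assumed to vary like the WT libraries, called 0 of 226 genes (0%) after Benjamini-Hochberg adjustment, with a smallest adjusted p of 0.994. At an unadjusted p under 0.05 edgeR gave 0 genes higher and 2 lower, and DESeq2 called 0 genes, also with 0 higher and 2 lower at an unadjusted p under 0.05. The edgeR genes were chr13.trna87-GlnCTG and chr13.trna980-SerAGA, both with an adjusted p of 0.994. The test has 1 residual degree of freedom. On simulated counts of this design it recovered 3.5% of genes changed by 1 on the log2 scale and 94% of those changed by 2, so a missing call at a 2-fold change cannot be read as no change.

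Among genes below both WT libraries, the 10 lowest ratios to the WT mean were at genes of Cys, Gln, Ser, Leu, Gly and Tyr tRNAs. These are the 10 lowest genes named in what follows. chr13.trna81-ThrAGT (-0.63) and chr13.trna93-ValAAC (-0.59) also had low ratios but lay between the WT libraries and were left out. chr9.trna592-CysGCA held 17 reads in WT 1, 17 in WT 2 and 10 in NSun2-/-, or 461, 269 and 105 RPM. Its log2 ratio was -2.08 to WT 1 and -1.3 to WT 2, with counting intervals of -3.42 to -0.92 and -2.65 to -0.15. chr6.trna1024-CysGCA held 18, 12 and 10 reads in the same order, and its interval against WT 2 ran from -2.22 to 0.48, so at this depth it could not be told from WT 2. Both of these Cys genes held 10 reads in the NSun2-/- library and 12 to 18 in the WT libraries, near the minimum of 10 that the bound rule sets for the latter.

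chr13.trna87-GlnCTG held 42 reads in WT 1, 61 in WT 2 and 41 in NSun2-/-, or 1140, 966 and 431 RPM. The WT libraries lay close together and the NSun2-/- library lay well under them: the ratio was -1.4 to WT 1 (interval -2.06 to -0.75) and -1.15 to WT 2 (-1.77 to -0.57), against -0.25 between the WT libraries. It had 0 reads in the WT input and 5 in the NSun2-/- input. chr13.trna980-SerAGA, with more reads, held 115, 191 and 164, or 3120, 3030 and 1720 RPM. Again the WT libraries lay together, -0.05 apart, and the NSun2-/- library lay -0.86 from WT 1 (-1.21 to -0.5) and -0.81 from WT 2 (-1.12 to -0.5). These are the genes printed above with 1 exact copy in mm9. Both were picked by their ratios, and the intervals cover counting error only, not the spread between pools.

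At 5 others of the 10 lowest genes the NSun2-/- library lay just under WT 2 and WT 1 stood apart above both. Values of this kind were 1650, 934 and 768 RPM (WT 1, WT 2, NSun2-/-) at chr13.trna85-LeuCAA and 2140, 1220 and 1030 RPM at chr11.trna205-GlyACC. The counting interval against WT 2 held 0 at chr13.trna85-LeuCAA (-0.8 to 0.24), chr11.trna205-GlyACC (-0.69 to 0.21), chr13.trna960-TyrGTA, chr3.trna753-GlnCTG and chr3.trna297-GlnCTG. chr13.trna991-LeuTAA held 543, 523 and 357 RPM, and 0 lay in its interval against either WT library.

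**Figure D2:**
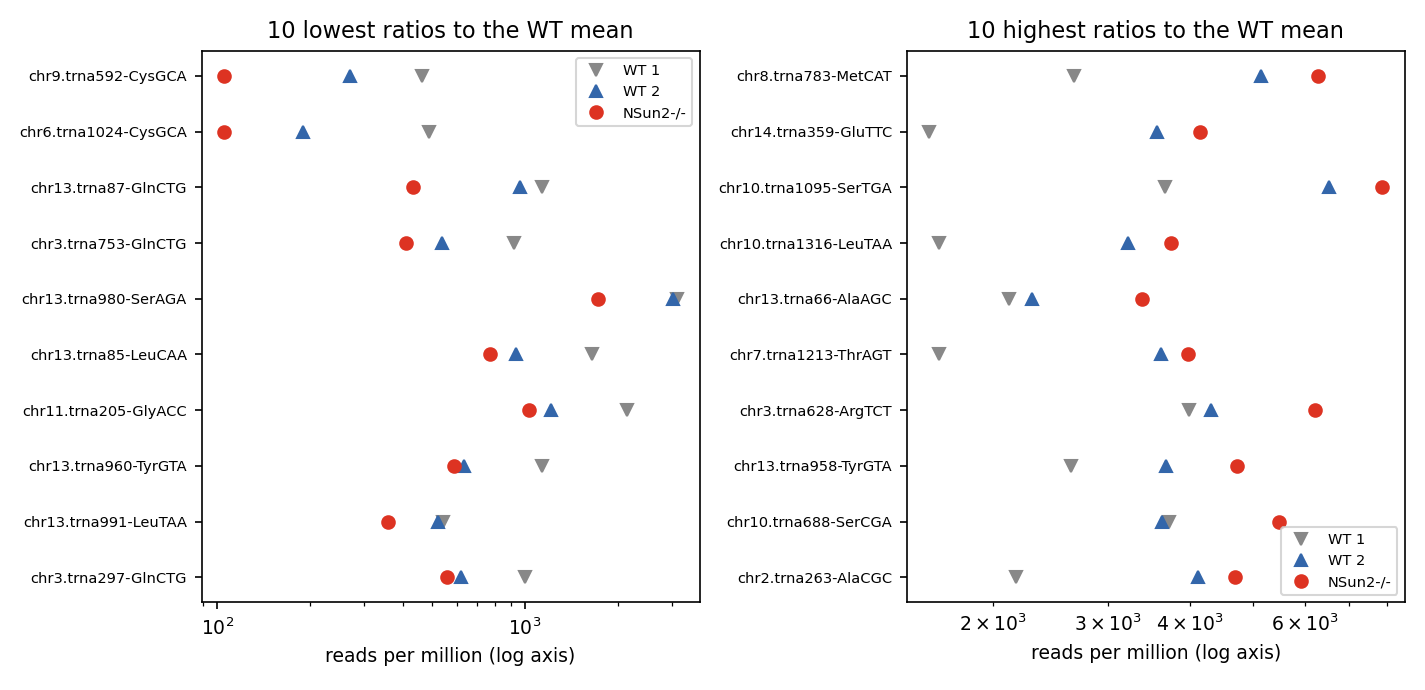
RPM (log axis) in WT 1, WT 2 and NSun2-/- at the 10 genes with the lowest and the 10 with the highest log2 ratio to the WT mean, among genes outside both WT libraries. At many genes NSun2-/- sits beside WT 2 and away from WT 1. At chr13.trna87-GlnCTG, chr13.trna980-SerAGA and chr13.trna991-LeuTAA both WT libraries sit together above NSun2-/-. At chr13.trna66-AlaAGC, chr3.trna628-ArgTCT and chr10.trna688-SerCGA they sit together below it.

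The highest ratios were at well occupied genes and none reached 2-fold. chr8.trna783-MetCAT held 98 reads in WT 1, 325 in WT 2 and 598 in NSun2-/-, or 2660, 5150 and 6290 RPM. Its log2 ratio to the WT mean was 0.68, made up of 1.23 to WT 1 and 0.29 to WT 2, while WT 2 lay 0.94 above WT 1. chr14.trna359-GluTTC (1600, 3560 and 4150 RPM) and chr10.trna1095-SerTGA (3660, 6530 and 7870 RPM) had the same pattern, in which WT 1 was low and NSun2-/- lay just over WT 2.

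At 3 of the 10 highest genes the WT libraries lay within 0.11 of each other and NSun2-/- lay apart above them. chr13.trna66-AlaAGC (chr13:21314455-21314526, plus strand) held 2120, 2300 and 3390 RPM, chr3.trna628-ArgTCT held 3990, 4310 and 6210 RPM, and chr10.trna688-SerCGA held 3720, 3630 and 5480 RPM. Their ratios to WT 2 were 0.55 (interval 0.27 to 0.85), 0.53 (0.32 to 0.74) and 0.59 (0.37 to 0.83). These genes too were picked by their ratios, and the intervals cover counting error only. Relative to the median gene they were 0.44, 0.41 and 0.41 higher on the log2 scale, and edgeR gave each an adjusted p of 0.994.

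The 10 genes with the most POLR3A reads include genes of Ala, Met, Leu, Ser, His and Arg tRNAs. chr11.trna2022-AlaTGC held 8300, 9520 and 13200 RPM in WT 1, WT 2 and NSun2-/-. The initiator MetCAT gene on chromosome 3, chr3.trna792-MetCAT, held 8730, 8220 and 11400 RPM. HisGTG genes of chromosome 2 took 3 of the 10 places, with 9480 to 10300 RPM in the NSun2-/- library, and SerGCT took 2. All 10 lay above both WT libraries, with log2 ratios to the WT mean of 0.39 to 0.56, but these genes were chosen by their NSun2-/- level, so that direction is no result.

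Bound genes fell into 47 isoacceptor families, which share an anticodon. Summed over the bound genes of a family, the log2 ratio to the WT mean ran from -0.71 to 0.49, with a median of 0.26. No family was 0.5 or more higher (0%) and 1 was 0.5 or more lower (2.13%). Against WT 1 alone 14 were higher, with input subtracted 7 were higher and 0 lower, and scaled to the loci that were not bound 44 were higher and 0 lower. Against WT 2 alone 0 were lower. The lower family was GlyACC, a family with 1 bound gene, whose RPM were 2140 in WT 1, 1220 in WT 2 and 1030 in NSun2-/-. Between the WT libraries, 6 families differed by 0.5 or more upwards and 2 downwards. The SD across families was 0.13 against WT 2, 0.38 against WT 1 and 0.34 between the WT libraries. edgeR called 0 of the 47 families (0%), with a smallest adjusted p of 0.953 and 0 at an unadjusted p under 0.05, and DESeq2 called 0.

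At the lower end, 4 of the 5 lowest families encode Gln and Lys tRNAs. GlnTTG held 8190, 5430 and 6020 RPM in WT 1, WT 2 and NSun2-/-, and GlnCTG held 14600, 11800 and 12000 RPM. LysTTT held 16500, 12500 and 12900 RPM and LysCTT held 18400, 14700 and 14900 RPM. In all 4 families the NSun2-/- library lay between the WT libraries, just above WT 2, with ratios to the WT mean of -0.14 to -0.18. Single genes of these isotypes were below both WT libraries more often than above: 5 of 10 Gln genes and 6 of 14 Lys genes lay below both and 2 of each lay above both, where 17.7% of all bound genes lay below both.

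The highest families were SerTGA, HisGTG, SeCTCA, AlaTGC and ArgCCG. SerTGA held 6210, 9390 and 11000 RPM, with ratios of 0.82 to WT 1 and 0.22 to WT 2. HisGTG held 20900, 25600 and 32300 RPM, and each of its 5 genes lay above both WT libraries, as did 50.4% of all bound genes under this scaling. AlaTGC differed from these, as its WT libraries lay together (17000 and 16200 RPM) and NSun2-/- stood at 22400 RPM, 0.4 above WT 1 and 0.47 above WT 2. ArgCCG held 9490, 13000 and 15200 RPM. SeCTCA, the selenocysteine tRNA gene, which unlike most tRNA genes uses an upstream promoter, rested on 15, 38 and 68 reads.

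**Figure D3:**
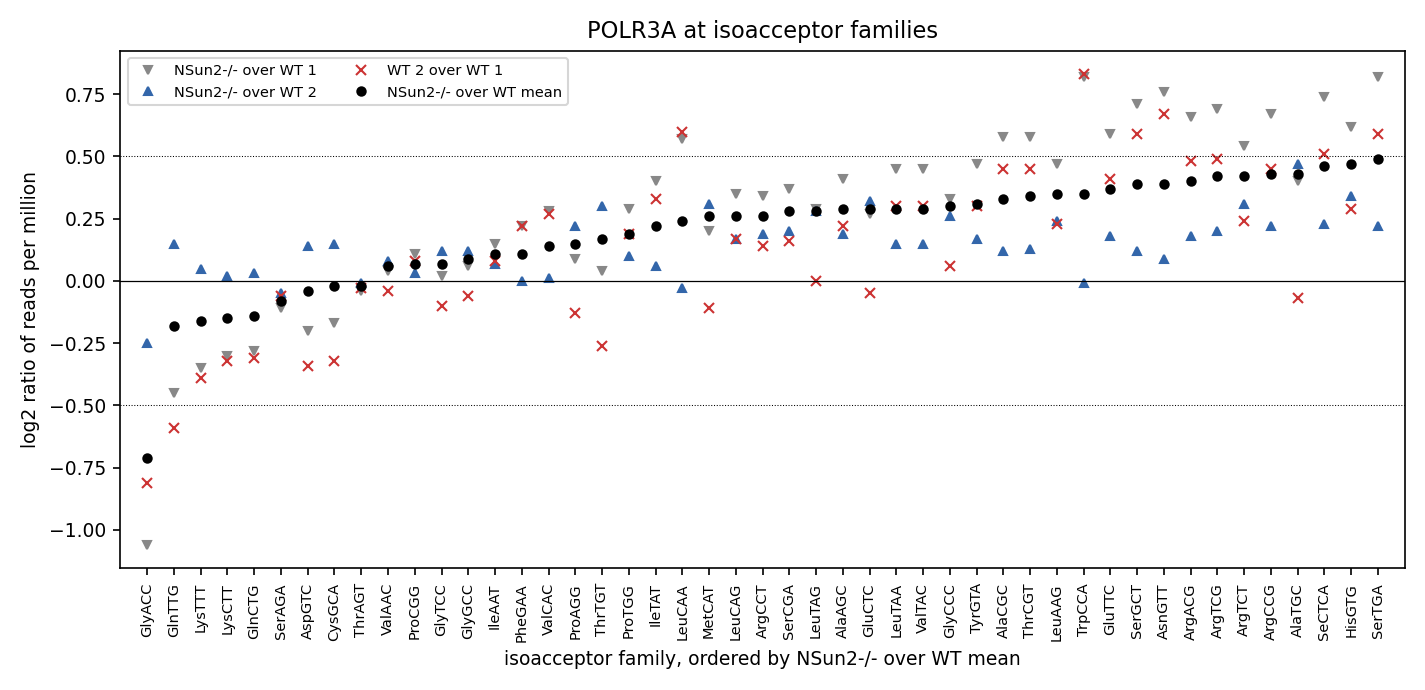
Log2 ratios of RPM for the 47 isoacceptor families, each the total of its bound genes: NSun2-/- over the WT mean (circles), over WT 1 and WT 2 (triangles), and WT 2 over WT 1 (crosses); dotted lines mark 0.5 in either direction. The crosses follow the triangles of WT 1 across the families, and the triangles of WT 2 stay between -0.25 and 0.47.

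The substrates of DNMT2, the methyltransferase of cytosine 38, are AspGTC, GlyGCC and ValAAC. AspGTC held 35600, 28100 and 31000 RPM in WT 1, WT 2 and NSun2-/-, GlyGCC held 28900, 27700 and 30200 RPM, and ValAAC held 8490, 8270 and 8760 RPM. All 3 were within 0.1 of the WT mean on the log2 scale (-0.04, 0.09 and 0.06). Of their 23 bound genes, 8 lay above both WT libraries (34.8%, beside 50.4% of all bound genes) and 3 below both (13%, beside 17.7%), and the median gene ratio was 0.02, beside 0.16 over all bound genes. The isotypes Asp, Glu, Gly, His, Lys and Val, which the study selected for their 5′ tRNA fragments in these mice, had a median of 0.07 over 68 genes, and 158 genes of the other isotypes had 0.19. Against WT 2 the order was the opposite, 0.14 and 0.1.

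Among the other families, LeuCAA, the family that NSUN2 also methylates in the anticodon loop, held 11900, 18100 and 17700 RPM, so NSun2-/- lay beside WT 2 and WT 1 was low. GluCTC held 25700, 24900 and 31100 RPM and GluTTC held 13100, 17500 and 19900 RPM. The 12 Glu genes had 9 above both WT libraries and 0 below, where 50.4% of all bound genes lay above both and 17.7% below both. CysGCA held 20800, 16700 and 18500 RPM, between the WT libraries, although 3 of its 9 genes lay below both.

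Chromosome 13 carries 76 bound genes, more than any other chromosome. Its summed POLR3A signal was 175000 RPM in WT 1, 163000 in WT 2 and 173000 in NSun2-/-, a log2 ratio of 0.04 to the WT mean and the lowest of the 14 chromosomes with at least 5 bound genes. Chromosome 2 was the highest at 0.48 (31500, 39700 and 49600 RPM), and chromosome 11, with 34 genes, was at 0.19 (137000, 142000 and 158000 RPM). On chromosome 13, 26 genes (34.2%) lay below both WT libraries and 23 (30.3%) above both. On the other chromosomes, 14 of 150 lay below both (9.33%) and 91 above both (60.7%). The median gene ratio was -0.06 on chromosome 13 and 0.24 elsewhere. The genes of chromosome 13 were less occupied on average: 76 of the 226 bound genes lie there, with 10276 of the 45213 counts at bound genes in WT 2. Less occupied genes had lower ratios, as given above, and the part of occupancy in the chromosome order was not tested.

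Part of this order was also present between the WT libraries. WT 2 over WT 1 was -0.11 on chromosome 13, again the lowest of the 14, and reached 0.65 on chromosome 9. Against WT 2 alone, the ratio of NSun2-/- was 0.09 on chromosome 13 and 0.06 to 0.32 over the 14. The inputs moved the other way: at bound genes of chromosome 13 the NSun2-/- input lay above the WT input (297 WT and 328 NSun2-/- reads, a log2 ratio of 0.28), whereas it lay below on 12 of the other 13 chromosomes, down to -1.05 on chromosome 1. After the input of the same genotype was subtracted, the lowest and highest ratios to the WT mean were 0 and 0.55, beside 0.04 and 0.48 without subtraction. These are the ends of the range and do not give the order. The part of the input in the chromosome order was not tested.

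**Figure D4:**
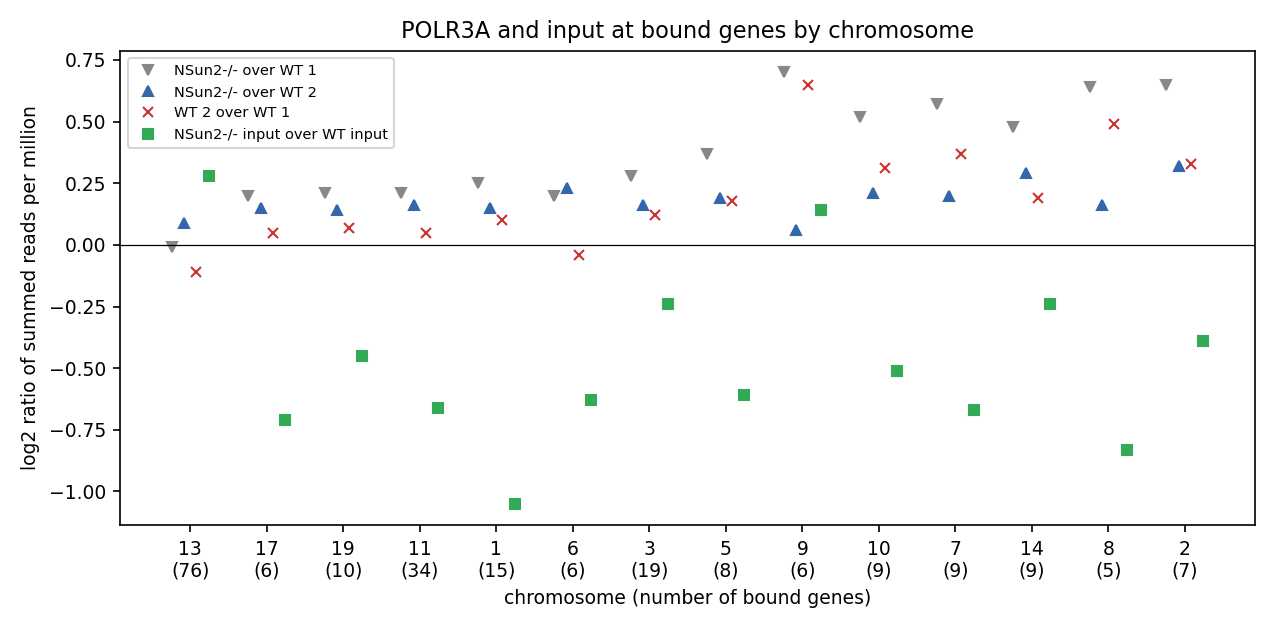
Log2 ratios of summed RPM at bound genes of the 14 chromosomes with at least 5 of them, for NSun2-/- over WT 1, NSun2-/- over WT 2, WT 2 over WT 1 and the NSun2-/- input over the WT input; the number of genes is in parentheses. Chromosome 13 is lowest against WT 1 and between the WT libraries, and it has the highest ratio of the inputs (0.28).

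A stretch of 195 kb had the lowest ratio to the WT mean among the groups of genes on chromosome 13, although a single gene at chr13:23409335-23409407 was lower against WT 2 (-0.3). When genes less than 100 kb apart were joined, the 22 bound genes of chr13:21947189-22142636 summed to 1589 reads in WT 1, 2568 in WT 2 and 3597 in NSun2-/-, a log2 ratio of -0.19 to WT 1 and -0.11 to WT 2. Of them 12 lay below both WT libraries, 6 between and 4 above, and the median gene ratio was -0.35. Below both lay 34.2% of the bound genes of chromosome 13 and 17.7% of all bound genes, and above both 30.3% and 50.4%. The stretch holds chr13.trna87-GlnCTG, chr13.trna980-SerAGA and chr13.trna85-LeuCAA from the 10 lowest genes, with chr13.trna86-SerAGA, chr13.trna978-SerAGA and chr13.trna975-GlnCTG (-0.37, -0.44 and -0.55 to the WT mean). The neighbouring groups summed higher against the WT mean: 0.14 for 14 genes of chr13:21252654-21418658 and 0.04 for 27 genes of chr13:23517515-23622288. Of the 14 genes, 2 lay below both WT libraries and 5 above both, with a median gene ratio of 0.04. Of the 27 genes, 8 lay below both and 9 above both, with a median of -0.02, beside 0.16 over all bound genes. The 27 genes thus shared part of this pattern. The stretch was chosen after its values were seen and gets no test. Its inputs held 102 (WT) and 116 (NSun2-/-) reads. Its 22 genes were also less occupied on average, with 2568 reads in WT 2, where the neighbouring 14 genes held 2177 and the 27 genes 4150.

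Identical genes could be compared across chromosomes, since 17 sequences had bound copies both on chromosome 13 (31 copies) and elsewhere (52 copies). The ratio to the WT mean was lower for the chromosome 13 copies in 12 of the 17, with a median difference of -0.18. It was also lower in 12 of 17 against WT 2, but by a median of -0.04, and WT 2 over WT 1 was lower in 13 of 17 (median -0.18). SerAGA gave the largest difference against the WT mean (-0.66) and WT 2 (-0.71), while ArgACG (-0.96) and GlyGCC (-0.6) exceeded it against WT 1 (-0.58). Its 3 identical copies on chromosome 13 averaged -0.28 against WT 2 and -0.28 against WT 1, and those on chromosomes 4 and 11 averaged 0.43 and 0.3. In reads per library, chr4.trna16-SerAGA held 98, 167 and 353, and chr13.trna978-SerAGA held 71, 81 and 113, in WT 1, WT 2 and NSun2-/-. Over the 36 sequences with at least 2 bound copies, the ratio of identical copies spanned a median of 0.32 and at most 0.92 on the log2 scale.

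Applied to the NSun2-/- library and its own input, the bound rule gave 240 loci, of which 205 (85.4%) were among the 226 of the WT rule, and these were 90.7% of the latter. None of the 21 loci bound by the WT rule alone had under 10 reads in the NSun2-/- library, since each fell under 2-fold over the NSun2-/- input. The 5 with the most WT signal were all on chromosome 13: chr13.trna988-PheGAA, chr13.trna86-SerAGA, chr13.trna85-LeuCAA, chr13.trna81-ThrAGT and chr13.trna87-GlnCTG. chr13.trna988-PheGAA, for example, held 76, 81 and 111 reads, with 7 in the WT input and 9 in the NSun2-/- input.

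The 35 loci bound by the NSun2-/- rule alone also turned on inputs and on WT 1. At 28 of them both WT libraries reached 10 reads but their mean stayed under 2-fold over the WT input, and at 7 WT 1 held under 10 reads. chr1.trna702-GlyGCC held 104, 276 and 303 reads, with 47 in the WT input and 7 in the NSun2-/- input. chr17.trna516-IleTAT held 53, 194 and 290, and chr11.trna1234-ArgCCT held 66, 171 and 239. WT 1 alone was low at chr1.trna998-GlyTCC (8, 195 and 255 reads) and chr11.trna550-ThrCGT (15, 129 and 253 reads), where NSun2-/- over WT 2 was -0.21 and 0.38.

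Of the loci in the table, only 7 of 3283 had at least 50 reads in an input, all on chromosome 1 and for Gly, Asp, Glu and Leu tRNAs. They took 5.92% of the WT input and 1.85% of the NSun2-/- input, against 1.9%, 2.49% and 1.81% of WT 1, WT 2 and NSun2-/-. chr1.trna1001-GlyTCC held 143, 236 and 266 reads in the POLR3A libraries, with 232 in the WT input and 60 in the NSun2-/- input. chr1.trna1000-AspGTC held 193, 272 and 216 reads, with 198 and 30 in the inputs, and its NSun2-/- library lay -1.21 from WT 1 and -0.92 from WT 2. In RPM its WT input lay above its WT POLR3A libraries, so it did not count as bound.

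**Figure D5:**
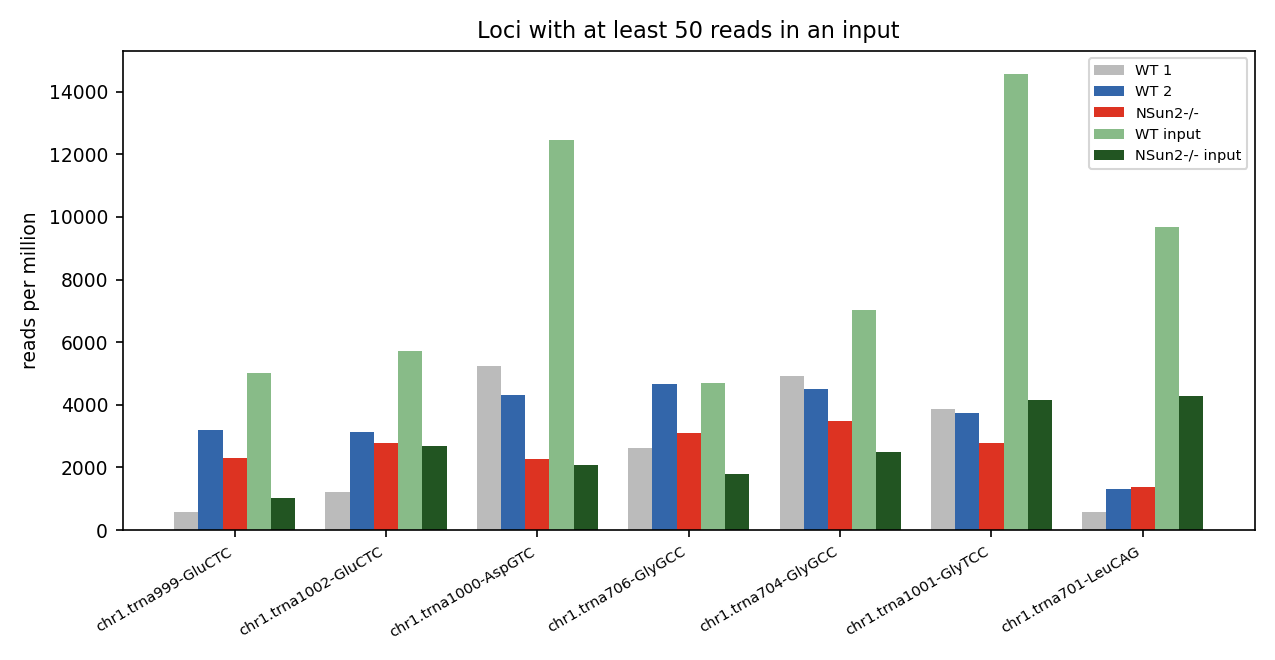
RPM in the 3 POLR3A libraries and both inputs at the 7 loci with at least 50 reads in an input, all on chromosome 1. The WT input stands over every POLR3A library at each locus, and the NSun2-/- input stands below the WT input at each.

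Genes were next classed by the cytosines that NSUN2 methylates in their transcripts. Of the 206 genes with a position, 179 encode C48 or C49 (positions of the standard tRNA numbering, taken from the T arm in mm9) and 27 neither. The median log2 ratio to the WT mean was 0.13 with these cytosines and 0.34 without. Against WT 2 the medians were 0.12 and 0.1, against WT 1 they were 0.16 and 0.59, and WT 2 over WT 1 gave 0.04 and 0.44. The difference of -0.21 therefore rests on WT 1 and became 0.03 without it. Genes whose box B matched exactly had a median of 0.16 (194 genes), and the 12 without an exact match, among them the 7 identical initiator MetCAT genes, had 0.26.

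RNA bisulphite sequencing of the same genotypes (4 libraries each) gave a percentage of unconverted reads at C48 or C49 for 45 bound genes, where a site needed a depth of 10 reads or more in 3 or 4 of the 4 WT libraries and likewise of the NSun2-/- libraries. The median gene had 90.8% in WT and 38.4% in NSun2-/- skin, and 37 of the 45 were lower in NSun2-/-. The study left out reads with a high share of unconverted cytosines and reported methylation at C48 or C49 as lost without NSun2. No such read filter was applied here to the deposited counts. The percentages are therefore not like those of the study and do not measure methylation left in NSun2-/- skin. The 22 genes that lost most (45.6 to 77.8 percentage points) had a median POLR3A ratio of 0.2 to WT 2 and 0.17 to WT 1. The 23 others had 0.18 and 0.32. The difference between these classes was thus 0.02 against WT 2 and -0.15 against WT 1, while it was -0.17 between the WT libraries themselves.

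Mature tRNA levels from tRNA-seq were set beside POLR3A for the 19 families that had reads ending in CCA over at least 90% of a gene. Such reads were 5.92% to 8.69% of the WT libraries and 1.71% to 4.62% of the NSun2-/- libraries. Their counts per 1000000 reads of a library (CPM) were lower in NSun2-/- for 16 of 19 families. AlaAGC, LeuAAG, LysTTT, ProAGG, ValCAC and ValTAC lay near the floor, with WT means of 0.702 to 1.8 CPM. The largest differences, -3.09 for LeuAAG and -2.64 for ProAGG, were among these. Such families are kept in the counts, medians and correlations. An exact two-sided permutation test over 70 assignments has a smallest possible p of 0.0286. At it, 4 families were lower (21.1%) and 0 higher (0%). After adjustment over the 19, 0 of 19 passed (0%, smallest adjusted p = 0.136). The 4 already held the smallest possible p, so with the other families as they were they could not have passed. The 4 were AspGTC, GluCTC, GluTTC and GlyGCC, in each of which all 4 NSun2-/- libraries lay below the lowest WT library in CPM. Scaled to the mature reads of each library, an alternative chosen after seeing the data, 9 families were lower and 10 higher, with a median difference of 0.07 in place of -1.03. On that scale 0 families (0%) were lower and 2 (10.5%) higher at the smallest exact permutation p, ArgCCG and LysCTT. Again 0 passed the adjustment, which these 2 could not from that p (smallest adjusted exact permutation p = 0.271). The libraries of all 4 families named first then overlapped between the genotypes.

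AspGTC held 5900 ± 1700 CPM (SD, n = 4) in WT and 2830 ± 1270 CPM (n = 4) in NSun2-/- skin, a log2 difference of -1.19, while its POLR3A ratio was -0.04. As a share of mature reads it was 8.05% ± 1.43 in WT and 7.67% ± 1.8 in NSun2-/- skin, a difference of -0.08. GluTTC held 44000 ± 5880 and 22800 ± 8800 CPM, a difference of -1.03 beside a POLR3A ratio of 0.37, and its share of mature reads was 60.7% ± 5.45 and 64.2% ± 8.66, a difference of 0.07. The tRNA-seq differences were -1.31 for GluCTC and -1.55 for GlyGCC, with POLR3A ratios of 0.29 and 0.09, and -0.21 and -0.44 relative to mature reads. These differences in CPM, already at the smallest possible p, could not pass the adjustment (adjusted exact permutation p = 0.136 for each, n = 4). HisGTG, with a POLR3A ratio of 0.47, had a tRNA-seq difference of -1.24 (-0.14 relative to mature reads). LysCTT, with a POLR3A ratio of -0.15, had one of -0.57 in CPM but of 0.54 relative to mature reads. Over the 9 families with the higher POLR3A ratios the median tRNA-seq difference in CPM was -1.03, and over the other 10 it was -1.07. Across the 19 families Pearson's r was -0.14 and Spearman's rho -0.12, given as a description, since families share their libraries and are not replicates.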

How the data were processed

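POLR3A ChIP-seq and input libraries of WT and NSun2-/- mouse back skin were analysed. The authors aligned reads to mm9 with Bowtie and deposited raw counts per predicted tRNA locus, with multiply matching reads distributed in proportion to uniquely matching ones. The tRNA-seq counts (per gene and read sequence) and the bisulphite counts with the percent of unconverted reads (Bismark 0.7.6) were also used as deposited. Gene positions came from the study's list of tRNA genes and sequences from mm9 (GENCODE vM1).

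RPM are counts over the table total. Ratios used a pseudocount of 1 read, and bound genes needed 10 reads in both WT libraries and 2-fold over input. Python 3.11.15 (scipy 1.17.1), R 4.3.3, edgeR 4.0.16 and DESeq2 1.42.0 were used. The edgeR test was tested on simulated data of 2034 features, 200 of them changed. Intervals of a ratio are exact 95% binomial intervals of the pair of counts. 1 read was worth 27.1 RPM in WT 1, 15.8 in WT 2 and 10.5 in NSun2-/-. Each replicate is a pool of mice. Named genes were those outside both WT libraries with the 10 highest and lowest ratios, the 10 with the most NSun2-/- RPM, loci bound in 1 genotype (at most 5 each), the 5 highest and lowest families with those the study names, and extreme chromosomes. Members and lists were chosen with earlier results of these data known. Alternatives were other scalings, pseudocounts, bound rules, input subtraction and each WT library left out. 1 gene that the rule names is not reported here.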

Additional observations from a re-analysis of the deposited data

Results flagged for a closer look

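LysCTT in tRNA-seq was flagged because 1 NSun2-/- library lay far from the other 3: its mature tRNA level was 269 CPM, and the others held 627, 671 and 689 CPM. On the log2 scale the gap was 0.899 of the range of the 4. Among 20 groups of 4 libraries 1 was flagged, and chance flags about 1 in 20. As a share of mature reads the same library, at 1.58%, lay within the range of the others (1.49%, 1.51% and 1.73%).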

How the results depend on the processing

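No paired analysis was possible because the POLR3A groups share a single replicate number and the other libraries pair by number alone, with no shared animal. With 1 WT library left, edgeR has no residual degrees of freedom and gives no value. Of the alternatives 69 values stayed the same, 45 moved and 7 changed sign. Calls by edgeR stayed at 0 without TMM, with filterByExpr (645 loci) and with DESeq2.

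Scaled to the bound genes, the median ratio was -0.05 and the lowest chromosome -0.18, with 49 genes above both WT libraries, 85 below both and 5 at least 2-fold lower. Scaled to loci that were not bound, the median was 0.8 and chromosomes ran from 0.69 to 1.11. Then 209 genes lay above both and 4 below both, 9 were 2-fold above both and 0 below, 54 were at least 2-fold higher and 1 lower, and 44 families were 0.5 higher and 0 lower. With input subtracted, 3 genes were at least 2-fold higher, 19 lower and 14 were 2-fold below both, with 7 families higher and 0 lower. With 10 reads in all libraries as the sole filter, 1 gene was at least 2-fold higher, 11 lower, 66 below both and 5 2-fold below both, with 1 family higher and 2 lower. With the bound rule on the NSun2-/- library, 2 genes were higher, 0 lower and 0 2-fold below both, with 1 family higher. Bound shares were then 67.3% (WT 1), 75.4% (WT 2), 84% (NSun2-/-) and 11.1% (WT input). With no filter the median was -0.95 and the lowest chromosome -0.99, and the added read is worth 27.1 RPM in WT 1, 15.8 in WT 2 and 10.5 in NSun2-/-. Then 264 loci lay above both, 2219 below both, 2 were 2-fold above both and 898 below both, 16 were 2-fold higher and 1564 lower, and 1 family was higher and 19 lower.

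Leaving out WT 1 or WT 2 gave 0 to 14 genes at least 2-fold higher, 2 to 8 lower, 0 to 14 families higher and 0 to 1 lower. The lowest chromosome was -0.01 without WT 2 and 0.06 without WT 1. The C48 or C49 difference was 0.03 without WT 1 and -0.43 without WT 2. The difference by methylation loss was 0.02 without WT 1 and -0.15 without WT 2. The latter, the tRNA-seq libraries left out in turn and scaling to mature reads were chosen after seeing the data. The cause of these changes was not tested.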
